A study of Mus musculus with 12 samples.

Results

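The Hox clusters are 4 groups of genes, Hoxa on chromosome 6, Hoxb on chromosome 11, Hoxc on chromosome 15 and Hoxd on chromosome 2 (mm10), and their expression was followed in mouse embryonic stem (ES) cells that lack Smad2 and Smad3 or that lack Smad4. All genes of the deposited FPKM table named Hoxa, Hoxb, Hoxc or Hoxd and a number were taken, without antisense transcripts. These were 39 of 32245 rows, 11 Hoxa, 10 Hoxb, 9 Hoxc and 9 Hoxd genes, and all 39 were also present among the 32285 gene IDs of the count table. Hox genes encode homeodomain transcription factors that give cells their position along the head-to-tail axis, and their number within a cluster follows the order in which they are switched on in the embryo. In undifferentiated ES cells the clusters are held silent by Polycomb complexes, and low-numbered genes such as Hoxb1 are the earliest to respond to retinoic acid and to signals of the primitive streak. Nodal, Activin and TGF-beta receptors act through Smad2 and Smad3. Smad4 binds these as well as the Smads of the BMP pathway.

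All cells were of the E14Tg2a.IV ES line, and each of 6 groups had 2 libraries: Smad4 knockout (S4KO), Smad2 and Smad3 double knockout (S23DKO) and wild type (WT), each as embryoid bodies on day 4 after withdrawal of LIF (leukemia inhibitory factor, which keeps ES cells undifferentiated) and as undifferentiated cells on day 0. The labels do not say how many clones each knockout represents or whether the 2 libraries of a group were separate cultures, so p-values measure only the spread between these libraries. Counts over a whole gene do not show an edit that leaves the transcript in place, and the kind of edit is not given in the sources used here: Smad4 had 80.1 to 146.7 CPM in the 4 S4KO libraries and 41.5 to 138.2 CPM in the 4 WT libraries. In the 4 S23DKO libraries Smad2 had 38.0 to 52.4 CPM and Smad3 13.7 to 34.0 CPM, against 24.7 to 98.0 CPM and 8.11 to 50.8 CPM in WT, so transcript levels did not check the genotype labels. Libraries held 31566376 to 55806858 counts, and the smallest was S4KO day 4 replicate 2. ES cell markers summed to 1099 to 3087 CPM (counts scaled to a common library total) in the 6 day 4 libraries and to 4026 to 7156 CPM in the 6 day 0 libraries. Ribosomal protein genes took 14.1% and 10.3% of the counts in the WT day 0 libraries and 4.84% to 7.44% in the other 10 libraries, so the WT day 0 libraries stood apart from the rest.

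Promoters of the 4 members that passed the test as higher in WT cells on day 4 than on day 0 are shown here, because Hoxb1 separated the S23DKO from the other day 4 groups and Hoxd4, Hoxd8 and Hoxd9 were also higher in both knockouts on day 0. The sequences are RefSeq windows of GRCm38.p6 from 250 bases before to 50 bases after the gene start, 5′ to 3′ on the plus strand, at chr11:96365508-96365807 for Hoxb1, chr2:74721728-74722027 for Hoxd4, chr2:74704365-74704664 for Hoxd8 and chr2:74697513-74697812 for Hoxd9. Capitals mark matches, on either strand, to 5 motifs: CAGAC (a Smad half-site), AATNNACA (FoxH1, a DNA-binding partner of Smad2 and Smad3), TGATNNAT (Pbx and Hox proteins bound together), AGGTCA (a retinoic acid receptor half-site) and TTTATG (Cdx).
Hoxb1: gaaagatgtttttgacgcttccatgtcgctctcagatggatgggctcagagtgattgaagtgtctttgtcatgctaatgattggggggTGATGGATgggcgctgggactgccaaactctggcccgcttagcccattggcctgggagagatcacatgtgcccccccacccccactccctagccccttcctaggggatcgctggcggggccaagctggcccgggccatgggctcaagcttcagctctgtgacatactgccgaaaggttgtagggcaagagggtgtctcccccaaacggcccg
Hoxd4: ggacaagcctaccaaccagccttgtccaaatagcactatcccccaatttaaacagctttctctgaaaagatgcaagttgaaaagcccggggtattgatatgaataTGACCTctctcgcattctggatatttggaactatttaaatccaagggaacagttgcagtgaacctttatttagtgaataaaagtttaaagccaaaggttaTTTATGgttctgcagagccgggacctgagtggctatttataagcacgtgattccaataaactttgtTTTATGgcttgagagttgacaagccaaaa
Hoxd8: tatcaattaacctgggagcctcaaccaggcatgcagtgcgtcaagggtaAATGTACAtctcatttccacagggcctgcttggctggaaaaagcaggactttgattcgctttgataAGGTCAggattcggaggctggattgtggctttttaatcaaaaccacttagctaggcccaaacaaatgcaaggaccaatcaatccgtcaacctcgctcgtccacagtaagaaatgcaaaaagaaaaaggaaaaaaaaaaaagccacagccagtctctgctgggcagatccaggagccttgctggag
Hoxd9: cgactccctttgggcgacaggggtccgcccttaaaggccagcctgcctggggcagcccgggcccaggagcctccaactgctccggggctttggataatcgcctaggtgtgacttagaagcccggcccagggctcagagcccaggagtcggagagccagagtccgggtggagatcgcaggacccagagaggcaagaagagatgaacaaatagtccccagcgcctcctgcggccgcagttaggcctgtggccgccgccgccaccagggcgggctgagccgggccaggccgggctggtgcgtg
Hoxb1 held 1 match, to the Pbx-Hox motif, a motif known from the elements through which Hoxb1 sustains its own expression in the hindbrain. Hoxd4 held 1 retinoic acid receptor half-site and 2 Cdx motifs, Hoxd8 held 1 FoxH1 motif and 1 retinoic acid receptor half-site, and the Hoxd9 window held none of the 5 motifs. The table holds windows for 22 members, 24 windows in all. CAGAC was found in 9 of these 24 windows (37.5%) and in 49.6% of all 32851 windows, AATNNACA in 5 (20.8%) and in 12.2%, TGATNNAT in 4 (16.7%) and in 8.85%, AGGTCA in 7 (29.2%) and in 16.3%, and TTTATG in 5 (20.8%) and in 11.9%. A match describes the letters only and shows no binding. The member windows had a median GC content of 57.7% (39.7% to 81.0%) and a median of 14.5 CpG dinucleotides, against 52.7% and 7 over all windows.

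Hox transcripts were scarce in all 12 libraries. Of the 39 members, 36 never reached 1 FPKM (fragments scaled to transcript length and library size). Hoxc13, with at most 2.51 FPKM in S23DKO day 0 replicate 1, and Hoxb9, with at most 1.29 FPKM, were among those that did. The 39 members together summed to 24.1 and 8.62 CPM in S4KO day 4 libraries, 24.9 and 15.8 CPM in S23DKO day 4 and 8.71 and 8.43 CPM in WT day 4. On day 0 the sums were 16.2 and 23.4 CPM in S4KO libraries, 20.6 and 24.2 CPM in S23DKO and 6.86 and 8.43 CPM in WT. On day 0 both knockouts lay above WT without overlap, whereas on day 4 the S4KO replicates differed widely and the second lay within the range of all 4 WT libraries. In these bulk samples, fewer cells with a Hox transcript and less of it per cell cannot be told apart.

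Low counts shape what follows. A count was listed for 37 and 21 of the 39 members in S4KO day 4 libraries, 38 and 31 in S23DKO day 4, and 29 and 24 in WT day 4. On day 0 it was listed for 26 and 34 in S4KO day 0, 30 and 34 in S23DKO day 0, and 19 and 24 in WT day 0. Over all gene IDs, a count was listed for 19338 and 19395 in WT day 0 and 19100 in S4KO day 4 replicate 2. The other libraries had 19701 to 20866. The WT day 0 libraries and S4KO day 4 replicate 2 were thus low in both, but WT day 4 replicate 2, with 24 Hox members, had 20192. In WT day 0 cells 12 members had no count in either library, and 6 of these were Hoxd genes (Hoxd3, Hoxd4, Hoxd9, Hoxd10, Hoxd11 and Hoxd12). Olfactory receptor genes, a family that these cells are not known to use and that was looked at after the Hox values were seen, summed to 72.5 and 79.5 CPM in S4KO day 4 libraries, 47.9 and 48.5 CPM in S23DKO day 4 and 47.0 and 53.6 CPM in WT day 4. Their day 0 sums were 61.8 and 78.4 CPM in S4KO, 57.0 and 65.7 CPM in S23DKO and 106 and 75.4 CPM in WT, so the WT day 0 libraries were not low in this family's sum, although they had counts for 129 and 136 of its 1092 genes against 123 to 196 in the other 10 libraries.

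**Figure D1:**
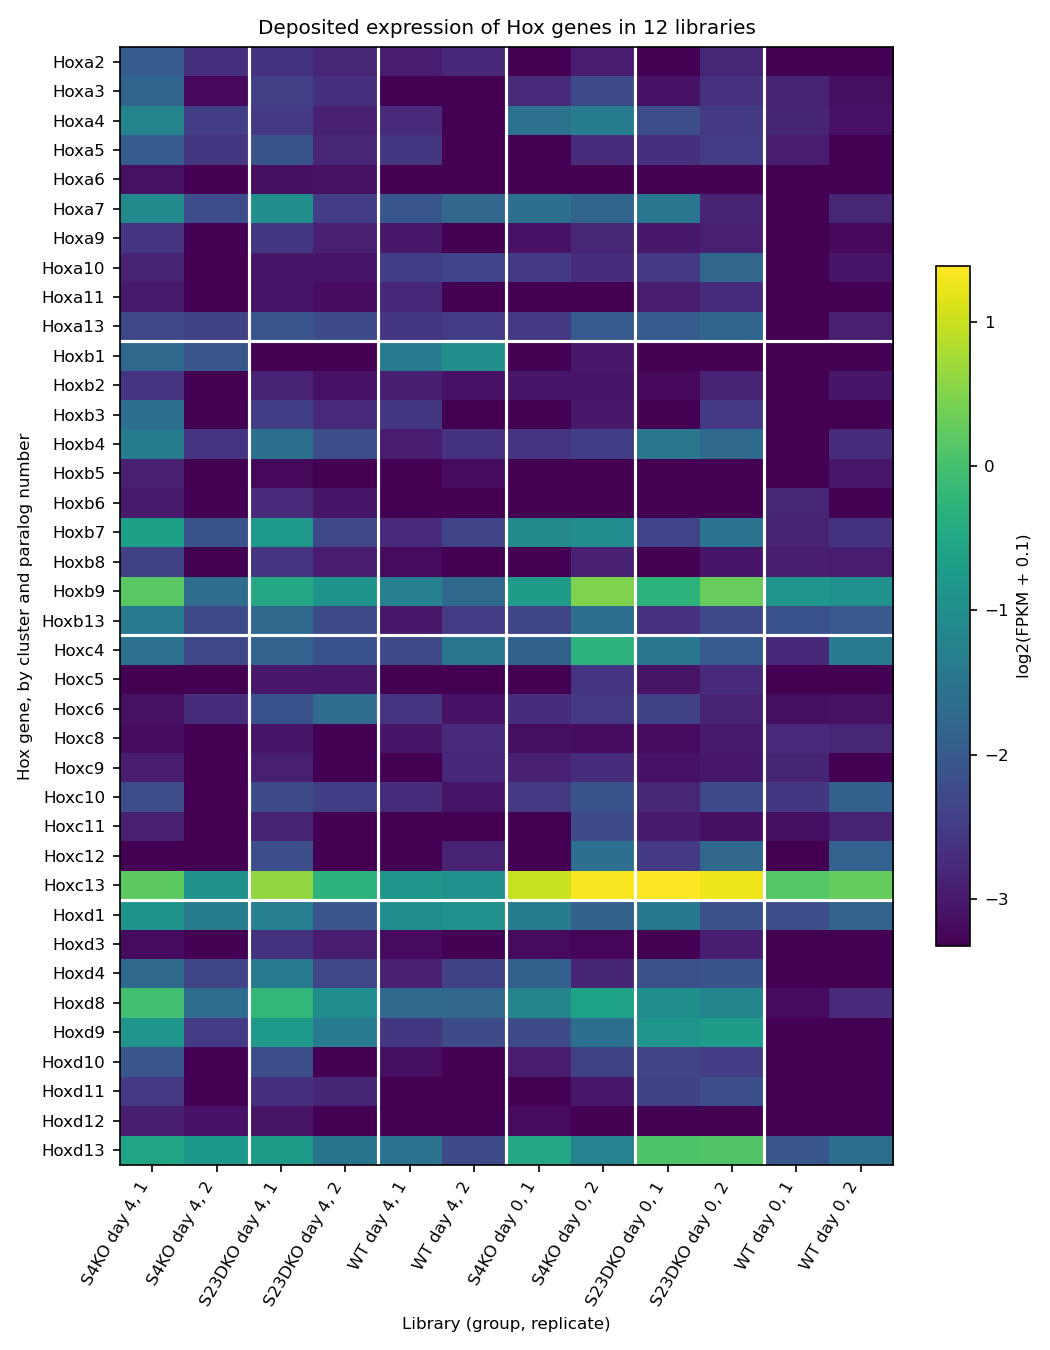
Colour gives log2(FPKM + 0.1) of Hox genes (rows, by cluster and number) in each of the 12 libraries (columns, by group and replicate). Hoxb9, Hoxc13, Hoxd8, Hoxd9 and Hoxd13 stand out from rows that lie near 0 FPKM in most libraries, and 6 of the 9 Hoxd rows have no count in either WT day 0 column.

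Expression was concentrated in few members. The 6 members with a group mean of at least 1 CPM, Hoxb9, Hoxc13, Hoxd8, Hoxd9 and Hoxd13 among them, took 46.7% to 76.2% of the summed Hox FPKM of a library. By position in the clusters, per length, the genes numbered 13 summed to 0.685 to 3.70 FPKM and those numbered 9 to 0.300 to 1.68 FPKM across libraries, while the genes numbered 2, 3, 5, 6, 10, 11 and 12 each summed to less than 0.431 FPKM in every library. The sum of the genes numbered 13, at the far end of the clusters, thus lay above that of most other positions, though positions hold 2 to 4 members each. This was not shared by all genes numbered 13: Hoxc13 and Hoxd13 reached 2.51 and 0.980 FPKM, but Hoxa13 and Hoxb13 at most 0.191 and 0.281 FPKM. Of the other 33 members, 15 to 32 had a count in a knockout library and 14 to 23 in a WT library, and the highest of them was Hoxc4 at 0.725 FPKM in S4KO day 0 replicate 2. Hoxc5 spans Hoxc6 to Hoxc10, Hoxa3 spans Hoxa4 to Hoxa6, and Hoxd3 overlaps Hoxd4 in the annotation, so reads may have been split between them.

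Of the 39 members, 25 passed the filter on low counts and entered the test, and 14 did not. A gene that is high in 1 group only can pass that filter because of that group, so counts of calls among the 25 describe the members and are not a separate line of support. A member was called at an adjusted p below 0.05 over all 18693 genes tested (edgeR's quasi-likelihood test, Benjamini-Hochberg adjustment).

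On day 0, before differentiation, a few Hox genes, most of them Hoxd genes, were higher in the knockouts than in WT. The share of members called in either direction, 28% in S23DKO and 16% in S4KO, was no larger than that of all genes. In S23DKO cells 7 of 25 members were called against WT, all higher, beside 31.0% of all genes called in that comparison. Of the 18693 genes tested there, 3114 were higher and 2685 lower, so the members differed from all genes in direction. Among the 7 were Hoxa13, Hoxd4, Hoxd8, Hoxd9, Hoxd11 and Hoxd13, and by cluster they were 5 of the 7 tested Hoxd genes, 2 of the 8 tested Hoxa genes, and none of 6 Hoxb and 4 Hoxc genes. In S4KO cells 4 of 25 were called, all higher, among them Hoxd4, Hoxd8 and Hoxd9. Of all genes 19.6% were called there, 1955 higher and 1708 lower. Without a filter all 39 members were tested: 7 were called in S23DKO, with Hoxb4 in place of Hoxa13, and 4 in S4KO.

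Hoxd9, which helps to pattern the lumbar spine and forelimb, had no count in either WT day 0 library. It had 0.263 and 0.498 CPM in S4KO day 0 libraries (13 and 25 counts) and 0.981 and 1.08 CPM in S23DKO day 0 libraries (50 and 50 counts). Against a floor of 3 counts over the 2 WT libraries, Hoxd9 was at least 12.9-fold higher in S4KO (adjusted p = 0.0138) and at least 34.7-fold higher in S23DKO (adjusted p = 0.00321, edgeR). The S23DKO call was kept under all 21 alternative settings that gave a value, and the S4KO call under 16 of 21.

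Hoxd8, a gene of the trunk, had 0.828 and 1.38 CPM in S4KO day 0 libraries, 0.942 and 0.824 CPM in S23DKO day 0 and 0.0401 and 0.136 CPM in WT day 0. Both knockouts lay above WT without overlap. Its log2 fold change was 3.42 ± 0.78 (SE) in S4KO (adjusted p = 0.0151) and 3.06 ± 0.78 in S23DKO (adjusted p = 0.0140), by edgeR's test. The antisense gene Hoxd3os1 overlaps Hoxd8 in the annotation, and the strand setting is not given, but the counts of Hoxd3os1 were 0 to 3 in every library.

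Hoxd13, at the far end of the cluster and needed for digits, differed in S23DKO. It had 1.57 and 0.817 CPM in S4KO day 0 libraries, 2.43 and 2.47 CPM in S23DKO day 0 and 0.361 and 0.565 CPM in WT day 0. The log2 fold change was 2.17 ± 0.55 in S23DKO (adjusted p = 0.0141) and 1.19 ± 0.55 in S4KO, which did not pass (adjusted p = 0.147, edgeR). Between the knockouts themselves, S4KO over S23DKO, the difference of -0.98 ± 0.52 did not pass either (adjusted p = 0.322), so the 2 knockouts were not shown to differ in Hoxd13.

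Hoxc13 and Hoxb9 were not called against WT on day 0 by edgeR. Hoxc13, known for its part in hair and nail formation, had 4.66 and 6.04 CPM in S4KO day 0 libraries, 6.24 and 5.74 CPM in S23DKO day 0 and 2.51 and 2.75 CPM in WT day 0. The groups did not overlap, yet the log2 fold changes of 0.84 ± 0.44 in S4KO and 0.95 ± 0.44 in S23DKO gave adjusted p-values of 0.202 and 0.121 (edgeR). In S23DKO 3 of 22 alternatives called Hoxc13: limma on genes with at least 1 FPKM (adjusted p = 0.0249), the length and GC correction (adjusted p = 0.0251) and a fit of only the groups compared (adjusted p = 0.0467). Hoxb9, which patterns the thoracic skeleton, had 1.31 and 3.19 CPM in S4KO day 0, 1.90 and 2.95 CPM in S23DKO day 0 and 1.20 and 1.07 CPM in WT day 0, with log2 fold changes of 0.78 ± 0.63 and 0.84 ± 0.63 that were close to their standard errors (adjusted p = 0.413 and 0.336, edgeR).

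Hoxd4, Hoxd11 and Hoxa13 lay below 1 CPM and were described after their values were seen. Hoxd4, a gene of the neck vertebrae, had 13 and 6 counts in S4KO day 0 libraries, 14 and 13 counts in S23DKO day 0 and none in WT day 0, at least 6.43-fold higher in S4KO (adjusted p = 0.0235) and at least 9.38-fold higher in S23DKO (adjusted p = 0.00996, edgeR). Hoxd11, which with Hoxa11 shapes the forearm, had 0 and 5 counts in S4KO day 0, 16 and 17 counts in S23DKO day 0 and none in WT day 0 or WT day 4, and was at least 11.5-fold higher in S23DKO (adjusted p = 0.0391, edgeR). Hoxa13, a limb and hindgut gene, had 9 and 19 counts in S4KO day 0, 20 and 21 counts in S23DKO day 0 and 0 and 5 counts in WT day 0, with a log2 fold change of 2.83 ± 0.99 in S23DKO (adjusted p = 0.0484, edgeR). The Hoxa13 call was lost in 14 of 20 alternatives and the Hoxd11 call in 7 of 20. The Hoxd4 call was lost in 4 of 20 in S23DKO and in 5 of 19 in S4KO.

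These day 0 counts rest on both WT libraries. When WT day 0 replicate 1 was left out, 0 members were called in S4KO (0.0928% of all genes) and 1 in S23DKO (4.75%). Both counts also fell without WT day 0 replicate 2, the S4KO count without S4KO day 0 replicate 1 and the S23DKO count without S23DKO day 0 replicate 2. Each of these fits leaves a group with 1 library, and these further falls were not compared with those of all genes. Direct comparison of the knockouts on day 0, S4KO over S23DKO, called 0 of 25 members (5.53% of all genes called), with 0 at an unadjusted p below 0.05, and 0 by DESeq2 and by limma.

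**Figure D2:**
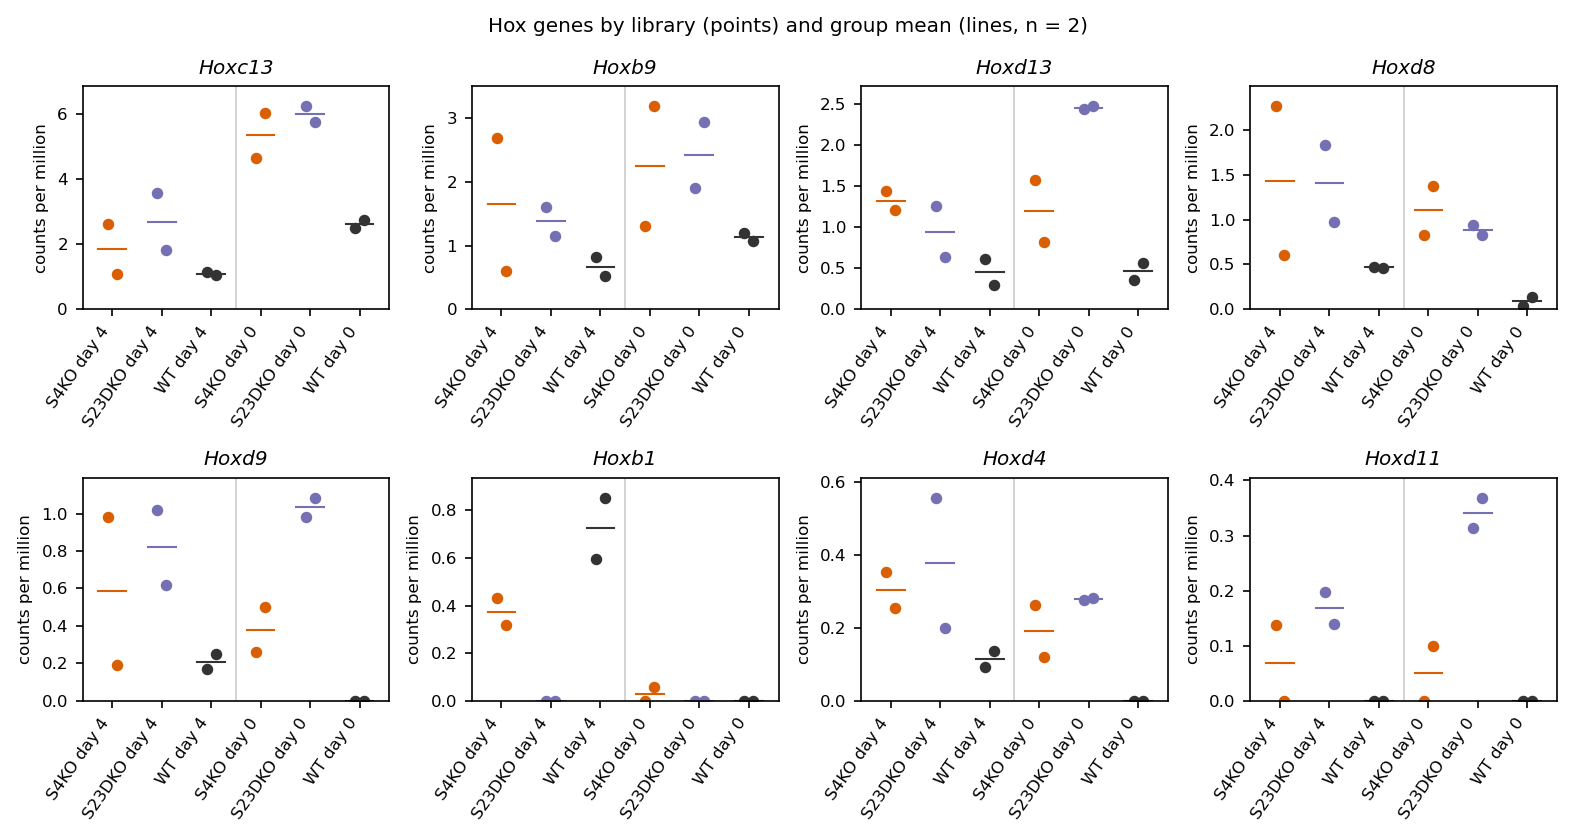
CPM (vertical axes, each starting at 0) of Hox genes in every library (points) with the mean of each group (lines, n = 2), day 4 groups left of the grey line and day 0 groups right of it. Hoxb1 is at 0 in both S23DKO day 4 libraries and between 0.317 and 0.852 CPM in the S4KO and WT day 4 libraries, and Hoxd4, Hoxd9 and Hoxd11 are at 0 in WT day 0.

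The 4 clusters could be compared through their sums. Summed Hoxd values were 3.63 and 3.47 CPM in S4KO day 0 libraries, 5.65 and 5.53 CPM in S23DKO day 0 and 0.622 and 1.05 CPM in WT day 0. Hoxa sums were 4.83 and 6.32 CPM in S4KO day 0, 4.69 and 7.24 CPM in S23DKO day 0 and 1.42 and 1.40 CPM in WT day 0. Hoxc sums, led by Hoxc13, were 5.43 and 8.79 CPM in S4KO day 0, 7.36 and 6.91 CPM in S23DKO day 0 and 3.05 and 4.09 CPM in WT day 0. Hoxb sums were 2.28 and 4.78 CPM in S4KO day 0, 2.92 and 4.51 CPM in S23DKO day 0 and 1.77 and 1.89 CPM in WT day 0. In each cluster all 4 knockout libraries lay above both WT libraries on day 0, but with the filter on low counts no Hoxb or Hoxc gene was called there. Of all genes, 31.0% were called in S23DKO day 0 and 19.6% in S4KO day 0. The sums are scaled to the library total only, and ribosomal protein genes took a larger part of that total in the WT day 0 libraries than in the others.

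**Figure D3:**
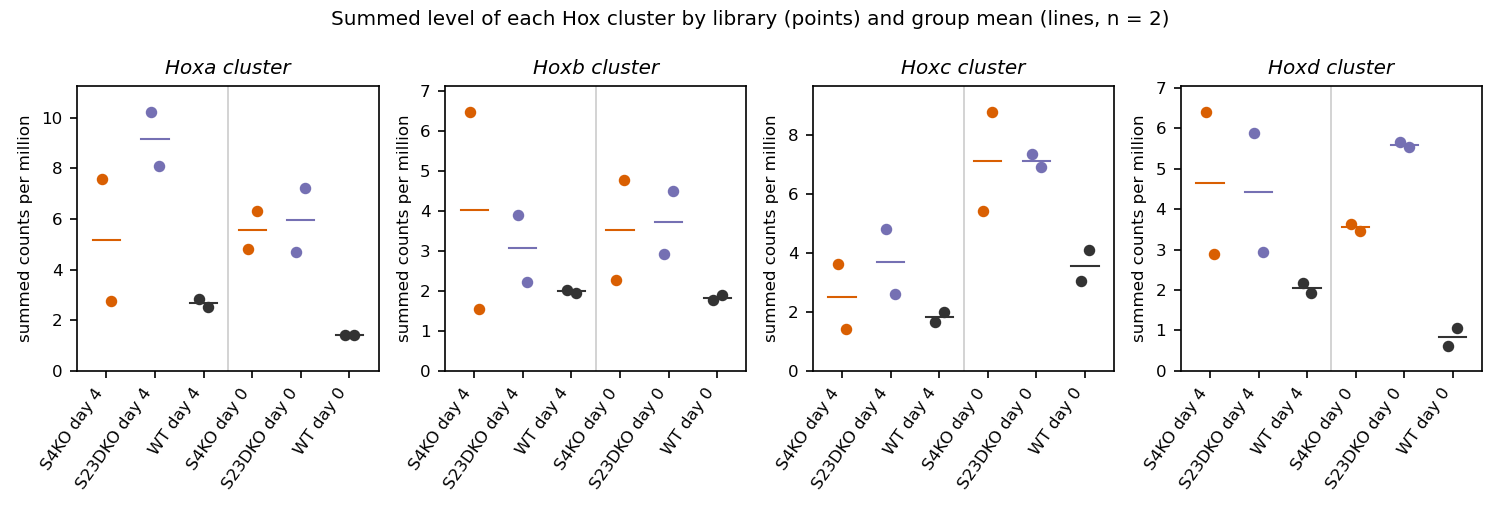
Summed CPM of the genes of each Hox cluster (vertical axes, each starting at 0) in every library (points) with group means (lines, n = 2). The Hoxd sums of the knockouts on day 0 lie at 3.47 to 5.65 CPM, above 0.622 and 1.05 CPM in WT, and the 2 S4KO day 4 libraries lie far apart in every cluster.

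When WT cells differentiated for 4 days, Hoxb1 appeared and Hoxc13 fell. Of the 25 members, 5 were called between WT day 4 and WT day 0, beside 43.6% of all genes: Hoxb1, Hoxd4, Hoxd8 and Hoxd9 were higher and Hoxc13 was lower. Hoxb1, which sets the identity of a hindbrain segment and is active early in the primitive streak, had 32 and 44 counts in WT day 4 libraries and none in WT day 0, at least 24.4-fold higher (adjusted p = 0.00618, edgeR). This call was kept in all 20 alternatives that gave a value.

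The other 3 members that rose in WT cells were Hoxd genes at low levels. Hoxd9 had 9 and 13 counts in WT day 4 libraries and none in WT day 0, at least 7.05-fold higher (adjusted p = 0.0110). Hoxd4 had 5 and 7 counts in WT day 4 and none in WT day 0, at least 3.85-fold higher (adjusted p = 0.0224, edgeR). The Hoxd9 call was lost in 4 of 20 alternatives and the Hoxd4 call in 5 of 19. Hoxd8 had 0.466 and 0.465 CPM in WT day 4 and 0.0401 and 0.136 CPM in WT day 0, a log2 fold change of 2.16 ± 0.79 (adjusted p = 0.0442, edgeR), and this call held in 10 of 21 alternatives.

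Hoxc13 moved the other way, to 1.14 and 1.05 CPM in WT day 4 libraries against 2.51 and 2.75 CPM in WT day 0, a log2 fold change of -1.48 ± 0.46 (adjusted p = 0.0221, edgeR). The call was lost in 8 of 22 alternatives: with a correction for gene length and GC content, in all 3 fits of FPKM values, and without each of the 4 WT libraries (adjusted p = 0.0675 to 0.0867). Hoxb9 had a log2 fold change of -0.98 ± 0.65 that did not pass (adjusted p = 0.243, edgeR). The count of 5 fell when any of the 4 WT libraries was left out. Such a fit leaves a group with 1 library, and the fall was not compared with that of all genes.

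In the knockouts no member was called between the days. For S4KO day 4 over S4KO day 0 the count was 0 of 25 (8.90% of all genes called), with 2 at an unadjusted p below 0.05, 1 by DESeq2 and 1 by each limma fit. For S23DKO day 4 over S23DKO day 0 it was 0 of 25 (7.03% of all genes called), with 2 at an unadjusted p below 0.05, 1 by DESeq2 and 0 or 1 by the limma fits. Hoxc13 was closest to a call: it had 2.61 and 1.08 CPM in S4KO day 4 and 4.66 and 6.04 CPM in S4KO day 0, a log2 fold change of -1.58 ± 0.45 (adjusted p = 0.0512, edgeR), and passed in 8 of 22 alternatives. In S23DKO it had 3.57 and 1.82 CPM on day 4 and 6.24 and 5.74 CPM on day 0, a log2 fold change of -1.24 ± 0.44 (adjusted p = 0.111). All 3 genotypes thus had less Hoxc13 on day 4 than on day 0 in every library, though only the WT difference was called.

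Hoxb1 separated the genotypes on day 4. It had 22 and 10 counts in S4KO day 4 libraries, none in either S23DKO day 4 library, and 32 and 44 counts in WT day 4. Against WT, Hoxb1 was at least 25.5-fold lower in S23DKO (adjusted p = 0.0132), and against S23DKO it was at least 13.7-fold higher in S4KO (adjusted p = 0.0276, edgeR). Both S4KO libraries lay below both WT libraries, at 0.432 and 0.317 CPM against 0.597 and 0.852 CPM, but the difference did not pass, with a log2 fold change of -0.97 ± 0.92 (adjusted p = 0.739). On day 0 the counts were 0 and 3 in S4KO, and none in S23DKO and WT. Between day 4 and day 0 in S4KO the ratio was 12.9 (95% exact interval 4.04 to 65.8, counting error only), which did not pass the test (adjusted p = 0.108, edgeR). The fitted difference between the S23DKO and WT day changes is not usable for a gene with no count in S23DKO on either day. In limma's fits of log2(FPKM + 0.1) and log2(FPKM + 1) that difference was -2.13 and -0.42, with adjusted p-values of 0.00822 and 0.0120. With no count in S23DKO on either day, it only repeats the WT day change with the sign reversed. Groups at 0 have no spread between libraries, which can lower these p-values, so they are no separate test.

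The S23DKO day 4 comparison with WT called 2 of 25 members, beside 15.2% of all genes, 1 higher and 1 lower, and the lower one was Hoxb1. The count of 2 became 1 without WT day 4 replicate 1 and 0 without either S23DKO day 4 library, each of which leaves a group with 1 library.

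In S4KO day 4 cells 0 of 25 members were called against WT (1.73% of all genes called), with 5 at an unadjusted p below 0.05, 1 by DESeq2 and 0 by limma. The member called by DESeq2 was Hoxa3, named after its values were seen, with 26 and 1 counts in S4KO day 4 and none in WT day 4. Hoxd8 differed by 1.60 ± 0.66 on the log2 scale (adjusted p = 0.292) and Hoxd13 by 1.51 ± 0.55 (adjusted p = 0.222, edgeR). Between the knockouts on day 4, S4KO over S23DKO, 1 of 25 members was called, beside 12.3% of all genes, and this was Hoxb1, a call lost when any S4KO or S23DKO day 4 library, or WT day 4 replicate 2, was left out.

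Hoxb9, Hoxc13, Hoxd8, Hoxd9 and Hoxd13 were not called between genotypes on day 4 by edgeR, and for Hoxb9, Hoxc13 and Hoxd9 the S4KO libraries overlapped those of WT. Hoxd8 had 2.26 and 0.602 CPM in S4KO day 4, 1.83 and 0.978 CPM in S23DKO day 4 and 0.466 and 0.465 CPM in WT day 4, and in S23DKO it differed from WT by 1.48 ± 0.66 (adjusted p = 0.154). Hoxd9 had 0.983 and 0.190 CPM in S4KO day 4, 1.02 and 0.618 CPM in S23DKO day 4 and 0.168 and 0.252 CPM in WT day 4, a difference of 1.85 ± 0.77 in S23DKO (adjusted p = 0.134). Hoxd13 had 1.43 and 1.20 CPM in S4KO day 4, 1.25 and 0.638 CPM in S23DKO day 4 and 0.616 and 0.291 CPM in WT day 4, a difference of 0.96 ± 0.55 in S23DKO (adjusted p = 0.270, edgeR). Hoxb9 had 2.69 and 0.602 CPM in S4KO day 4, 1.61 and 1.16 CPM in S23DKO day 4 and 0.821 and 0.523 CPM in WT day 4. Hoxc13 had 2.61 and 1.08 CPM in S4KO day 4, 3.57 and 1.82 CPM in S23DKO day 4 and 1.14 and 1.05 CPM in WT day 4, and in S23DKO it differed from WT by 1.20 ± 0.45 (adjusted p = 0.0982 by edgeR and 0.0436 by DESeq2, the only one of 22 alternatives that called it). The second S4KO day 4 library was the lower of its pair for each of these members.

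**Figure D4:**
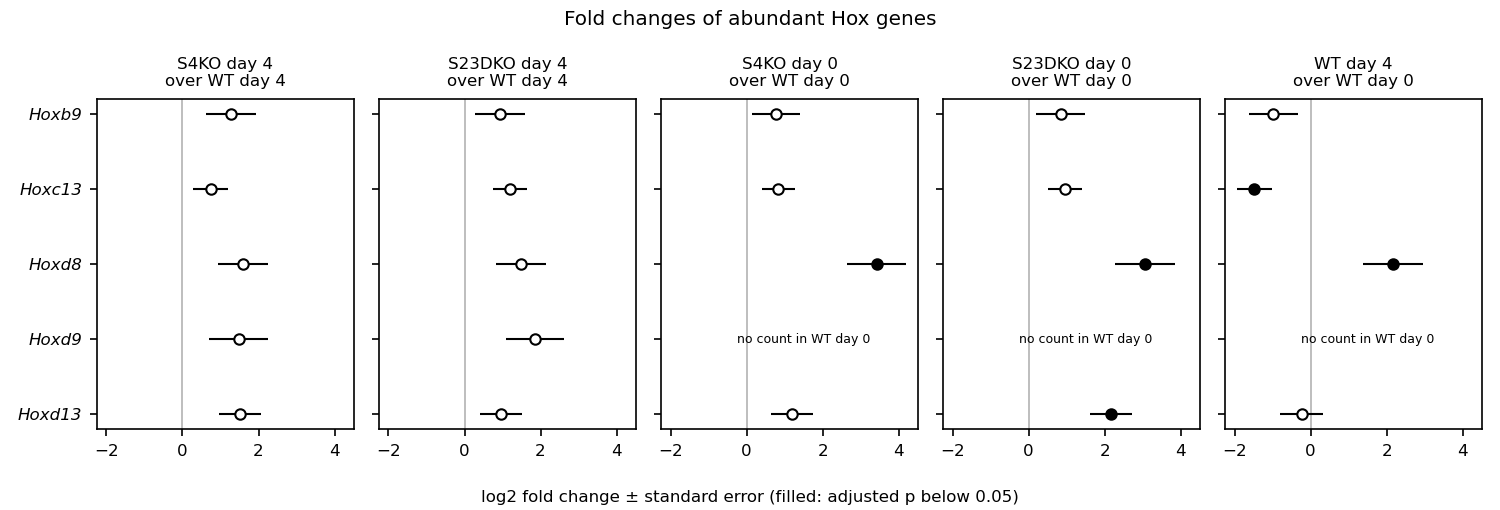
Log2 fold changes with standard errors (edgeR, n = 2 libraries per group) of members with a group mean of at least 1 CPM, in 4 knockout comparisons with WT and between the WT days, with filled points at an adjusted p below 0.05. Points are filled for Hoxd8 in both day 0 comparisons and the WT day comparison, for Hoxd13 in S23DKO day 0 and for Hoxc13 between the WT days, and no fold is drawn for Hoxd9 against WT day 0, which had no count.

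Whether the change over 4 days differed between genotypes was tested directly. For the S4KO day change minus the WT day change, 0 of 25 members passed (0.150% of all genes called), with 3 at an unadjusted p below 0.05, and 0 by DESeq2 and limma. For the S23DKO day change minus the WT day change, 0 of 25 passed (6.10% of all genes called), with 4 at an unadjusted p below 0.05, 1 by DESeq2 and 0 to 2 by limma. Hoxd9 came closest, at an adjusted p of 0.0565 by edgeR, and passed in 9 of the alternatives. It had 57 and 31 counts in S23DKO day 4 and 50 and 50 in S23DKO day 0, beside 9 and 13 in WT day 4 and none in WT day 0. Between the S23DKO days it was not called (adjusted p = 0.767, edgeR).

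Genes that act with or on Hox genes are given by list, and each count is to be read beside the share of all genes called in the same comparison: 31.0% in S23DKO day 0, 19.6% in S4KO day 0, 15.2% in S23DKO day 4, 1.73% in S4KO day 4 and 43.6% between the WT days. The TALE homeodomain proteins (Pbx, Meis and Pknox) bind DNA together with Hox proteins. Of 9 TALE genes, 3 were higher and none lower in S23DKO day 0 against WT, and 2 were higher and none lower in S4KO day 0. On day 4, 2 were higher and 2 lower in S23DKO and 1 was higher in S4KO, and 4 were higher and 1 lower in WT day 4 against WT day 0. The day 0 counts, 3 and 2 of 9, lay near those shares. Meis2 had 11.2 and 6.68 CPM in S4KO day 0, 16.2 and 5.07 CPM in S23DKO day 0 and 0.562 and 0.565 CPM in WT day 0, log2 fold changes of 3.80 ± 0.57 and 4.01 ± 0.57 (adjusted p = 0.00642 and 0.00155). On day 4 Pbx3 had 14.8 and 24.5 CPM in S4KO, 7.88 and 7.50 CPM in S23DKO and 33.1 and 31.2 CPM in WT. In S23DKO day 4 Pbx3 was lower than in WT by -2.17 ± 0.30 (adjusted p = 0.00104), while Meis1 was higher by 2.52 ± 0.40 (adjusted p = 0.00221, edgeR).

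Cdx proteins are caudal-type homeodomain activators of Hox genes in the posterior embryo. Among the 3 Cdx genes, Cdx2 alone was called against WT. Its values were 0.121 and 0.0399 CPM in S4KO day 0, 1.26 and 0.455 CPM in S23DKO day 0, and 0 and 0.117 CPM in WT day 0, a log2 fold change of 3.60 ± 0.96 in S23DKO (adjusted p = 0.0168). On day 4 it had 0.0983 and 0.190 CPM in S4KO, 2.22 and 1.94 CPM in S23DKO and 1.12 and 1.80 CPM in WT, lower in S4KO than in S23DKO by -3.80 ± 0.90 (adjusted p = 0.0194, edgeR). The S23DKO day 0 call and the call between the knockouts were each lost in 4 of 21 alternatives. The S4KO day 4 libraries lay below all other day 4 libraries in Cdx2, and its relation to Hoxb1 was not tested.

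Retinoic acid is a direct inducer of Hoxb1. Of 19 genes of its pathway, 7 were higher and 2 lower in WT day 4 against WT day 0, and 3 were higher and 4 lower in S23DKO day 4 against WT. In S4KO day 4, 1 was lower. On day 0, 3 were higher and 2 lower in S23DKO day 0, and 2 were higher and 2 lower in S4KO day 0. Between the WT days and on day 0 these counts lay near the shares of all genes called (43.6%, 31.0% and 19.6%). Cyp26a1, an enzyme that degrades retinoic acid and is itself induced by it, had 2.61 and 9.03 CPM in S4KO day 4, 8.06 and 7.14 CPM in S23DKO day 4 and 51.7 and 58.1 CPM in WT day 4. It was lower than WT by -3.26 ± 0.61 in S4KO (adjusted p = 0.0257) and by -2.96 ± 0.60 in S23DKO (adjusted p = 0.00842, edgeR). In S23DKO day 4, Rxrg and Dhrs3 were also lower than in WT, by -4.27 ± 0.91 and -2.73 ± 0.57 (adjusted p = 0.0103 and 0.00961, edgeR). Stra6 went the other way there and was higher by 2.75 ± 0.60 (adjusted p = 0.0110, edgeR).

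Posterior axis signals and factors, which act in the primitive streak and tail bud where Hox genes are switched on, included several that were lower in the knockouts on day 4. Of 13 tested genes of 15 listed, 7 were lower and none higher in S4KO and likewise 7 and none in S23DKO, while 8 were higher and 1 lower in WT day 4 against WT day 0. Tbx6, Wnt3a, Wnt5a, Fgf3, Fgf4 and Gdf11 were not called in either knockout on day 4. On day 0, Evx1 was higher than in WT, where it had no count, in S4KO (adjusted p = 0.0311) and in S23DKO (adjusted p = 0.0426, edgeR). Also on day 0, Fgf8 was lower in S4KO by -2.75 ± 0.85 (adjusted p = 0.0424) and Sp5 in S23DKO by -3.07 ± 0.97 (adjusted p = 0.0333, edgeR). The other tested genes were not called on day 0. Fgf8 had 0.806 and 2.34 CPM in S4KO day 4, 0.269 and 0.259 CPM in S23DKO day 4 and 20.9 and 73.0 CPM in WT day 4, a log2 fold change of -4.94 ± 0.70 in S4KO (adjusted p = 0.00568) and -7.56 ± 0.80 in S23DKO (adjusted p = 0.000240). Brachyury (T), the mesoderm factor, was lower by -5.94 ± 0.89 in S4KO and -8.44 ± 1.02 in S23DKO (adjusted p = 0.00874 and 0.000500, edgeR). Between the knockouts on day 4, Fgf8 was higher in S4KO than in S23DKO by 2.62 ± 0.71 and Nkx1-2 by 3.26 ± 0.73 (adjusted p = 0.0341 and 0.0159, edgeR). The other tested genes of the list were not called there. Hoxb1 had counts in the S4KO day 4 libraries, and its relation to these genes was not tested.

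Polycomb complexes repress Hox genes and trithorax proteins keep them active. Of 31 Polycomb genes, 5 were higher and none lower in S4KO day 0 against WT, and 9 were higher and 3 lower in S23DKO day 0. On day 4, 1 was higher in S4KO and 4 were higher and 1 lower in S23DKO day 4, and 9 were higher and 3 lower in WT day 4 against WT day 0, beside 19.6%, 31.0%, 1.73%, 15.2% and 43.6% of all genes called in these comparisons. Bmi1, a subunit of the ubiquitin ligase complex, had 19.7 and 14.7 CPM in S4KO day 0, 26.2 and 28.2 CPM in S23DKO day 0 and 3.31 and 3.76 CPM in WT day 0, log2 fold changes of 2.10 ± 0.31 and 2.70 ± 0.31 (adjusted p = 0.00593 and 0.000637). Cbx8, which reads the methylated histone, was higher in S23DKO on day 0 by 3.00 ± 0.46 (adjusted p = 0.00205) and on day 4 by 2.94 ± 0.44 (adjusted p = 0.00178, edgeR). Of 12 trithorax genes, 3 were higher and 1 lower in S4KO day 0, and 2 were higher and 3 lower in S23DKO day 0. On day 4, 1 was higher in S4KO and 2 were lower in S23DKO day 4, and 3 were higher and 4 lower in WT day 4 against WT day 0. That list also holds Utf1 and Dppa4, chromatin factors of ES cells that are not trithorax proteins. They were 2 of the 3 lower genes in S23DKO day 0, with log2 fold changes of -2.85 and -0.83, and Dppa4 was 1 of the 4 lower between the WT days. Kmt2a, a histone methyltransferase that maintains Hox expression, was higher in S23DKO day 0 by 1.56 ± 0.37 (adjusted p = 0.0101, edgeR), a call lost without either WT day 0 library.

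Markers of other cell types differed between the groups too. Fibroblasts, which can be used as feeder cells and express Hox genes, were represented by 11 markers that summed to 25.5 and 39.7 CPM in S4KO day 4, 62.4 and 56.1 CPM in S23DKO day 4, and 29.6 and 43.4 CPM in WT day 4. On day 0 they summed to 15.7 and 25.8 CPM in S4KO day 0, 38.6 and 35.5 CPM in S23DKO day 0 and 27.7 and 34.5 CPM in WT day 0. Dcn and Lum, which define fibroblasts, were at 0 in all 6 day 0 libraries, whereas Col1a1 had 1.17 to 9.74 CPM, Thy1 2.99 to 11.1 CPM and Pdgfrb 3.33 to 15.3 CPM in them, and Postn had 11.3 CPM in S23DKO day 0 replicate 2. The 10 trophectoderm markers summed to 144 and 225 CPM in S4KO day 4, 1646 and 1885 CPM in S23DKO day 4, and 356 and 455 CPM in WT day 4. On day 0 they summed to 75.9 and 114 CPM in S4KO day 0, 523 and 795 CPM in S23DKO day 0 and 126 and 138 CPM in WT day 0. Of these, 8 were called higher in S23DKO than in WT on each day, with 1 lower on day 4. The 10 extraembryonic endoderm markers summed to 36.5 and 69.0 CPM in S4KO day 4, 198 and 132 CPM in S23DKO day 4 and 790 and 722 CPM in WT day 4, and to 9.61 and 12.1 CPM in S4KO day 0, 24.8 and 45.4 CPM in S23DKO day 0 and 5.36 and 7.13 CPM in WT day 0. Of the neural markers, Sox1, Pax6 and Tubb3 were higher in S4KO day 4 than in WT day 4, by 5.12 ± 0.65, 3.82 ± 0.55 and 2.73 ± 0.59. Their adjusted p-values were 0.00358, 0.00663 and 0.0431 (edgeR), and the other tested neural markers were not called there. The part of any of these cell types in the Hox differences was not tested.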

How the data were processed

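RNA of 12 libraries was measured, 6 groups of 2, named by genotype and day in the sample titles. Libraries were made from 500 ng of RNA with a TruSeq kit, per the labels' protocols. The authors deposited counts per gene ID, whole numbers with no normalization recorded, and FPKM per gene symbol, scaled by the authors to length and library. The submitters' processing notes name mm10 as the build, and list StringTie, Cufflinks and DESeq2 without saying what each did. The aligner, annotation and strand setting are not given in the sources used here. Values of 1 (4966) were rarer than values of 2 (6989) in the deposited counts, so they need not be direct tallies of reads, and bounds and intervals cover counting error only. A supplied gene name table gave symbols for 32158 of 32285 IDs, and GENCODE M21 gave gene positions and overlaps.

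Counts were fitted with edgeR 4.0.16 (R 4.3.3) over all 12 libraries: TMM scaling, filterByExpr, 1 coefficient per group and the quasi-likelihood test, with the standard error as the fold change divided by the square root of F. Adjusted p-values are Benjamini-Hochberg values over 18693 genes. CPM is the count scaled to the library total. A fold against a group with no count is a bound against 3 counts over that group, with the count of the other group taken as observed. The alternatives, 22 per comparison, used other filters and scaling, DESeq2 1.42.0, limma 3.58.1 on log2(FPKM + 1) or log2(FPKM + 0.1), a replicate block, a correction for length and GC content, only the groups compared, and each library left out. The fits were tested on simulated data. Within groups, log2 CPM of the 2 libraries correlated at 0.958 to 0.989 and their counts differed beyond sampling noise, at 31.2 to 248 in chi-square per gene. None was therefore a repeat deposit of its partner.

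The members, gene lists and tests were chosen with earlier results of these data known. Members with a group mean of at least 1 CPM are given in every library, except that results of some genes are not reported here, and of each gene list at most 4 called genes per comparison, by size of the fold change.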

Additional observations from a re-analysis of the deposited data

How the results depend on the processing

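Counts of called Hox members moved with the filter, the test and single libraries, and no Hox fold change between groups given above changed direction. Against WT on day 0, the S23DKO count of 7 was 4 with at least 1 CPM in 2 libraries and 2 in limma's fit of genes with at least 1 FPKM in 2 libraries, and ranged from 1 to 7 with a library left out. The S4KO count of 4 was 1 in limma's fit of log2(FPKM + 1) both without a filter and with at least 1 FPKM in 2 libraries, and ranged from 0 to 4 with a library left out. Between the WT days the count of 5 was 3 with at least 1 CPM, 2 in both limma fits without a filter and 0 with at least 1 FPKM, where only 3 members were tested, and ranged from 1 to 6 with a library left out. On day 4 the S23DKO count of 2 was 1 with at least 1 CPM, 4 with DESeq2 and 1 with at least 1 FPKM, and ranged from 0 to 3 with a library left out. The S4KO count of 0 was 1 with DESeq2 and ranged from 0 to 1. Between the days, the S4KO count of 0 was 1 without a filter, with at least 1 CPM, RLE size factors, DESeq2, each limma fit, the replicate block and the length and GC correction, and 0 to 1 with a library left out. The S23DKO count of 0 was 1 with DESeq2 and in limma's fit of log2(FPKM + 1) without a filter. For S4KO over S23DKO on day 4 the count of 1 was 0 with at least 1 CPM, which drops Hoxb1, 2 with DESeq2 and 2 in both limma fits without a filter, and ranged from 0 to 1 with a library left out. The difference of the S23DKO and WT day changes, 0 by edgeR, was 1 without a filter, with at least 1 CPM, DESeq2, limma's log2(FPKM + 1), the length and GC correction and only the groups of the contrast, 2 in limma's log2(FPKM + 0.1), and 0 to 1 with a library left out. The causes were not tested, except that the stricter filters left 6 and 3 members to test.

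Leaving out a library assumes that the lone library of its group varies like the others. The ranges with a library left out are given without the share of all genes called in the same fits. They therefore do not set Hox members apart from other genes. The replicate numbers are not said to mark pairs, and the correlation of replicate differences between groups ran from -0.207 to 0.489. With the replicate block 5 members were called in S23DKO day 0 in place of 7 (Hoxa13 and Hoxd11 lost), 4 between the WT days in place of 5 (Hoxd8 lost) and 1 between the S4KO days in place of 0. No scaling moved the median of all genes by more than 0.1 on the log2 scale. Among all genes called in S4KO day 4 against WT, 39.3% were higher, and 52.2% with the length and GC correction. With 2 libraries per group and few counts for most members, a difference that did not pass is not shown to be absent.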
